A study of Mus musculus with 8 samples.

Results

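The genes described here are 37 pluripotency genes, chosen by symbol from the 24421 genes of the expression table. The choice used no rule on measured values, but earlier results of these data were known when it was made. They comprise 4 core factors, 9 naive transcription factors, 9 further stem cell markers, 5 genes of the Nodal pathway, 3 of the LIF pathway, 4 genes used as markers of primed or neural cells, 2 cell cycle and telomere factors and 1 secreted protein. Their levels were measured by RNA sequencing in mouse embryonic stem cells (mESCs), WT and Hira-null, in a study of HIRA in the differentiation of such cells toward cardiomyocytes. HIRA is a histone chaperone that places H3.3, a variant of histone H3, on DNA at any time of the cell cycle.

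WT cells were the W9.5 line and Hira-null cells were 1 clone, Clone 104, so that the absence of HIRA and other properties of this clone cannot be told apart. Both carried H3.3 with an HA tag. Day 0 cells were undifferentiated mESCs kept on gelatin in serum with LIF. Day 15 cells came from hanging drops of the same lines, cultured without LIF into beating cultures, which the labels call differentiated cardiomyocytes. Each of the 4 groups had 2 libraries from separate biological samples, 8 libraries in all. These were whole cultures of mixed cells, in which fewer cells of a type and less RNA per cell cannot be told apart.

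Mouse embryonic stem cells in the naive state resemble the epiblast before implantation and are held there by OCT4, SOX2 and NANOG together with factors such as ESRRB, TFCP2L1, KLF2, KLF4 and PRDM14. LIF signals through the receptor pair LIFR and gp130 to STAT3 and sustains this set. On leaving it, cells pass through a primed state resembling the epiblast after implantation, in which naive factors are shut off, Nodal signalling continues and POU3F1 and ZIC2 appear, before they enter the germ layers.

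OCT4 binds the octamer, often beside a SOX2 site, and promoters of members that carry these letters are shown because the level of Pou5f1, the gene of OCT4, changed between days and genotypes. RefSeq promoter windows of the GRCm38.p6 build, 300 bases long and reaching from 250 bases before to 50 after the start, were found for 23 of the 37 genes, 33 windows in all. Each is given 5′ to 3′ on the strand of its gene, with the matched motif in capitals.
Nanog promoter, chr6:122707239-122707538, plus strand: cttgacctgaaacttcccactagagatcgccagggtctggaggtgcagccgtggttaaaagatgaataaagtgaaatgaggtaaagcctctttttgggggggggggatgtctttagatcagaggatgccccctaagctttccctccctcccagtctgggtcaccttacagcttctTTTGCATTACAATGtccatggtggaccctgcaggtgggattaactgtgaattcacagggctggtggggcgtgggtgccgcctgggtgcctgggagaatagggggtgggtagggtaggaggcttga
Zfp42 promoter, chr8:43306960-43307259, minus strand: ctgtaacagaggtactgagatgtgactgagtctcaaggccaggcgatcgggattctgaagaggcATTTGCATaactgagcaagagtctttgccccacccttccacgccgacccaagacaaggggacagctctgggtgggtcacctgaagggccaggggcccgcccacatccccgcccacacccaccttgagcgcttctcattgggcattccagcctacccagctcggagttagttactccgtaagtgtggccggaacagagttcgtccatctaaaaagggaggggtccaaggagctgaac
Spp1 promoter, chr5:104435942-104436241, plus strand: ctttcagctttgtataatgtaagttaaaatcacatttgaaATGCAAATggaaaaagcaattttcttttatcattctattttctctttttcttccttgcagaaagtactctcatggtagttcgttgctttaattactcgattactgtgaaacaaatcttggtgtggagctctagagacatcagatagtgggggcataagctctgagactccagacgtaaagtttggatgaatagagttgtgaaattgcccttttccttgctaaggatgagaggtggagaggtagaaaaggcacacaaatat

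The capitals in Nanog mark the composite POU and SOX motif, the letters TTTGCAT followed by NACAANG, here starting 75 bases before the start. On both strands this motif was found in 3 of 32851 promoter windows (0.00913%), of which 2 were overlapping windows of Nanog that hold the same site. The capitals in Zfp42 and Spp1 mark the octamer ATTTGCAT, on the plus strand of the gene in Zfp42 and on the other strand in Spp1, 186 and 210 bases before the start. The octamer was in 1.74% of all windows, and its first letter lies outside the composite motif, with which it can overlap. A Kruppel-like motif, GGGNGTGGC (5.76% of windows), was found in 1 member, Tfcp2l1, and the ESRRB motif TCAAGGTCA (0.423% of windows) and the STAT3 motif TTCCNGGAA (1.15% of windows) were in none of the members' windows. A match of letters describes the sequence and does not show that a factor binds there.

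Between 6897009 and 11088583 fragments were counted per library. Values are FPKM as deposited, the fragments of a gene scaled by its length and by a factor for its library. This factor was not in proportion to the fragments counted per library. Tests are limma fits over all 14337 genes that reached 1 FPKM in 2 or more libraries, on log2(FPKM + 1), with adjusted p-values after Benjamini-Hochberg and calls at 0.05, and log2 fold changes are given ± SE with 2 libraries a group. On this scale the change of a gene at low FPKM is understated. All 37 members passed the filter. For 12 of them the genome holds near copies, at 90% identity or more over 50% or more of the transcript, so their reads may be shared. These include Zfp42 (1 copy, at 98.1%), Nanog (1, at 97.4%), Tdgf1 (3, the closest at 96.7%), Klf5 (1, at 91.3%) and Nr5a2 (1, at 91.1%). Hira itself was at 27.3 and 28.5 FPKM in WT and at 12.4 and 11.4 in Hira-null libraries at day 0 (log2 fold change -1.17 ± 0.10, adjusted p = 8.48e-05). At day 15 Hira was at 15.8 and 15.5 FPKM in WT and at 16.7 and 19.8 in the libraries labelled Hira-null (0.20 ± 0.11, adjusted p = 0.167). The transcript thus does not separate the genotypes at day 15, and differences there, like changes with time in Hira-null cells, are between libraries as labelled. Other genes differed by label in the same direction at both days, such as Lama1, a laminin chain chosen after its values were seen, which was lower in Hira-null libraries (-3.4 ± 0.07 at day 0, adjusted p = 6.95e-08, and -1.93 ± 0.08 at day 15).

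**Figure D1:**
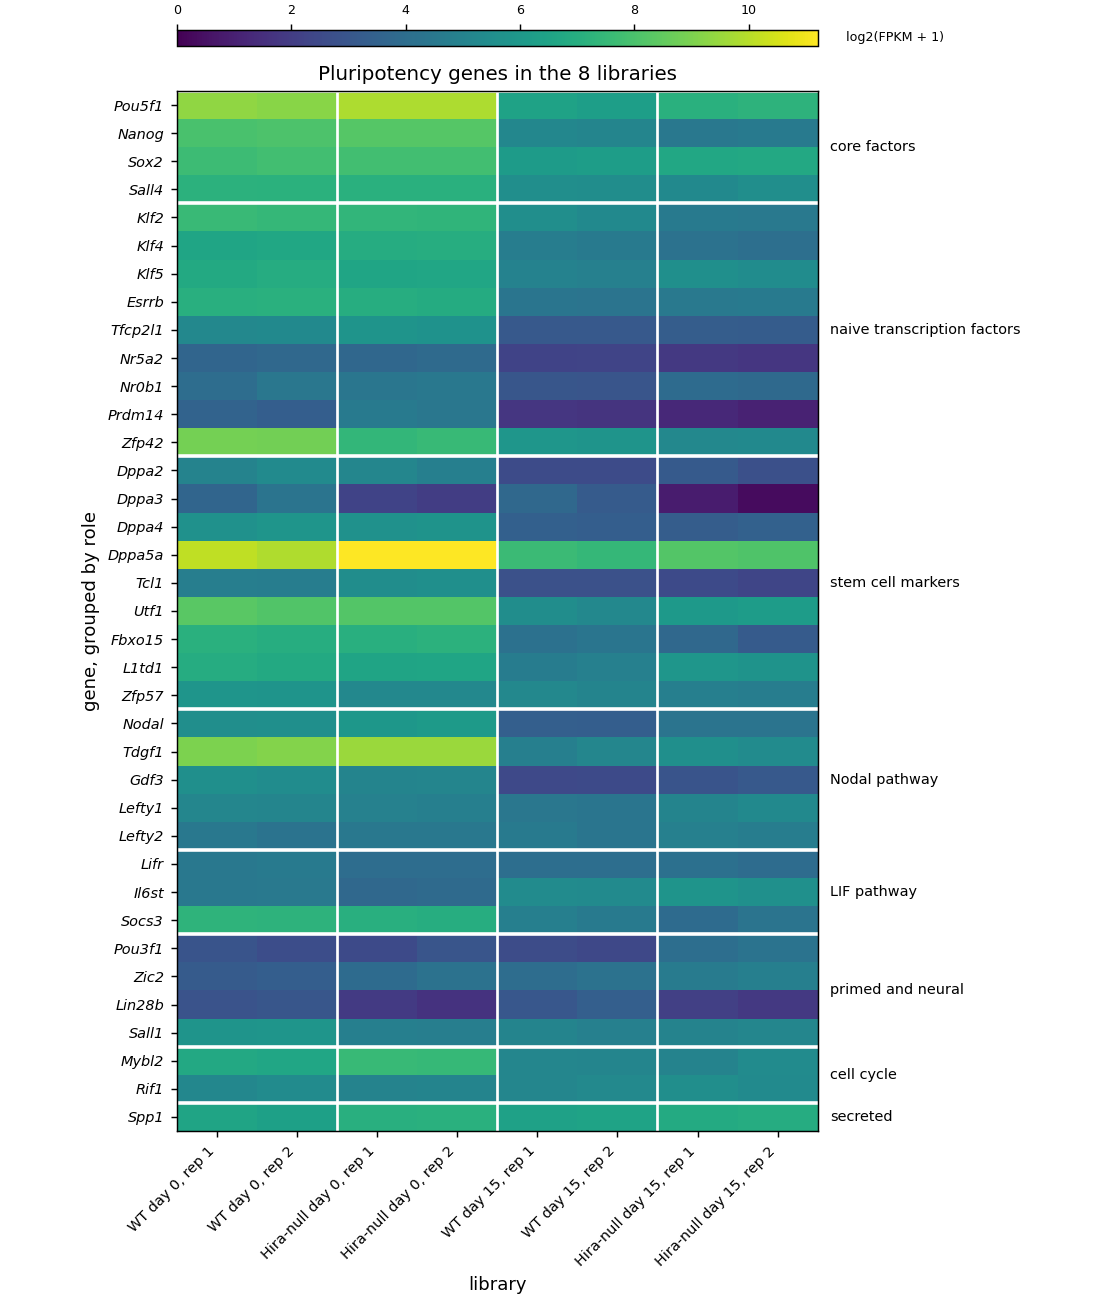
Heat map of the 37 genes (rows, grouped by role) in the 8 libraries (columns, 2 replicates a group), coloured by log2(FPKM + 1). Most rows of the upper groups are brighter in the 4 day 0 columns than in the 4 day 15 columns, whereas Il6st, Zic2, Lin28b, Lefty2, Rif1 and Spp1 are not.

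From day 0 to day 15 most pluripotency genes fell in both genotypes. In WT, 29 of the 37 were lower, 2 were higher and 6 did not pass, against a background of 33.4% of all genes lower and 36.1% higher, 69.5% together. In Hira-null cells 27 were lower, 7 were higher and 3 did not pass, with a background of 36.4% lower and 37.5% higher, 73.9% together. The fall was 2-fold or more for 25 members in WT and 24 in Hira-null cells, where 12.4% and 17.9% of all genes fell so far. Among the 32 members at a mean of 10 FPKM or more, 29 changed in WT (75.9% of all genes at that level) and 30 in Hira-null cells (78.3%). The libraries of the days did not overlap for 33 members in WT (84.2% of all genes) and 35 in Hira-null cells (86.4%). The median log2 fold change was -1.92 in WT and -2.0 in Hira-null cells, where it was 0.03 and 0.01 over all genes tested. Of the level at day 0, a median of 25% remained at day 15 in WT, and 18 of 37 members kept under 25%. In the libraries labelled Hira-null the median was 22%, with 20 members under 25%. Among all genes at 10 FPKM or more at day 0 the medians were 74.9% and 75.3%, and 3.15% and 7.29% of those genes kept under 25%.

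Loss was deepest for Tdgf1, Gdf3, Zfp42, Nanog and Pou5f1 in WT, which kept 5.80%, 10.5%, 12.5%, 13.1% and 13.2% of their day 0 level. At the other end stood Il6st (188%), Zic2 (186%), Lin28b (126%), Lefty2 (108%) and Spp1 (100%). Il6st and Zic2 were the 2 members that rose in WT. By role, the median left in WT was 22% for the core factors, 23.2% for the naive transcription factors, 18.0% for the stem cell markers and 20.2% for the Nodal pathway, against 104% for the primed and neural genes. All 31 calls in WT were kept in each of the 8 fits that left out 1 library, while the 7 members higher in Hira-null cells became 4 without Hira-null replicate 2 of day 0. Expressing each library as TPM, which fixes its total and moves the median of all genes by 0.47 in WT and 0.50 in Hira-null cells (log2), gave medians left of 34.7% and 31.8%, and 6 members higher in WT in place of 2.

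**Figure D2:**
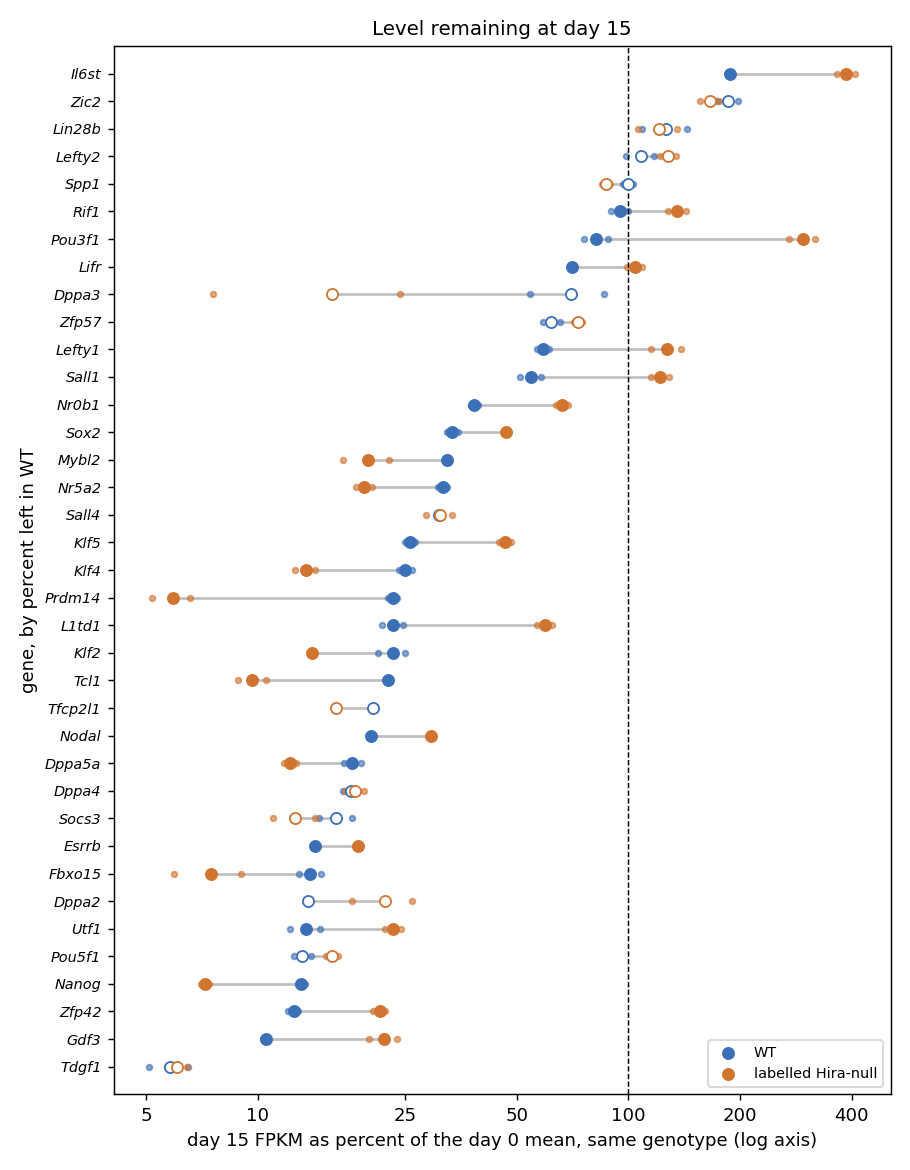
Level at day 15 as a percent of the day 0 mean of the same genotype (log axis) for each gene, with WT in blue and libraries labelled Hira-null in orange; small points are single libraries, large points are group means, filled where the genotype effect differed between days (adjusted p of 0.05 or less), and the dashed line is 100%. WT means run from 5.80% for Tdgf1 to 188% for Il6st, and the 2 genotypes lie far apart for Prdm14, L1td1, Pou3f1 and Il6st.

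Genotype differences among the pluripotency genes went both ways at each day. At day 0, 12 were higher in Hira-null cells, 10 were lower and 15 did not pass, with 20.8% of all genes higher and 19.4% lower (40.2% in either direction, 22 of the 37 members). At day 15 the libraries labelled Hira-null exceeded WT in 17 and lay below it in 12, 8 members not passing, against 18.6% higher and 18.8% lower of all genes (37.4% in either direction, 29 members). The median difference was -0.04 at day 0 and 0.22 at day 15, and 0.01 at both days over all genes. Most members are well expressed, and calls are more frequent in such genes. Of the 32 members at a mean of 10 FPKM or more, 19 passed at day 0 and 24 at day 15, where 51.3% and 40.8% of all genes at that level passed. Both libraries of a group lay outside both of the other for 30 members at day 0 (68.6% of all genes) and for 32 at day 15 (70.0% of all genes).

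Differences of 2-fold or more were few. At day 0, Prdm14 and Dppa5a were higher and Zfp42, Dppa3, Lin28b and Sall1 were lower, 6 of 37 against 7.22% of all genes. At day 15, L1td1 and Pou3f1 were higher and Dppa3 and Lin28b were lower, 4 of 37 against 8.86%. The genotype effect itself differed between the days for 24 members, becoming more positive in 15 and more negative in 9, where 17.5% and 17.7% of all genes did so (35.2% in either direction). At the level of 10 FPKM or more these were 21 of 32 members, against 39.7% of genes. A change of 2-fold or more was found for Pou3f1, L1td1, Sall1, Lefty1, Prdm14 and Tcl1, 6 of 37 against 13.8% of all genes. Pou5f1, Dppa5a, Nodal, Tdgf1, Zic2 and Spp1 were higher at both days, and Zfp42, Dppa3, Zfp57 and Lin28b were lower at both. Nanog, Klf4, Prdm14 and Tcl1 were higher at day 0 and lower at day 15, and Klf5, L1td1, Gdf3 and Il6st were lower at day 0 and higher at day 15. Sall4, Dppa2, Dppa4 and Rif1 passed at neither day.

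Leaving out 1 library changed the number of members called. Of 22 calls at day 0, 16 were kept in all 8 such fits, and of 29 at day 15, 16 were kept. The day 0 counts ranged from 9 to 13 higher and from 7 to 11 lower, and Lefty1 was gained as lower without either Hira-null library of day 15 (adjusted p = 0.0439 and 0.0448). The day 15 counts ranged from 10 to 17 higher and from 7 to 12 lower, with 10 higher and 7 lower without WT replicate 1 of day 15 and 13 higher and 8 lower without WT replicate 2 of that day.

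**Figure D3:**
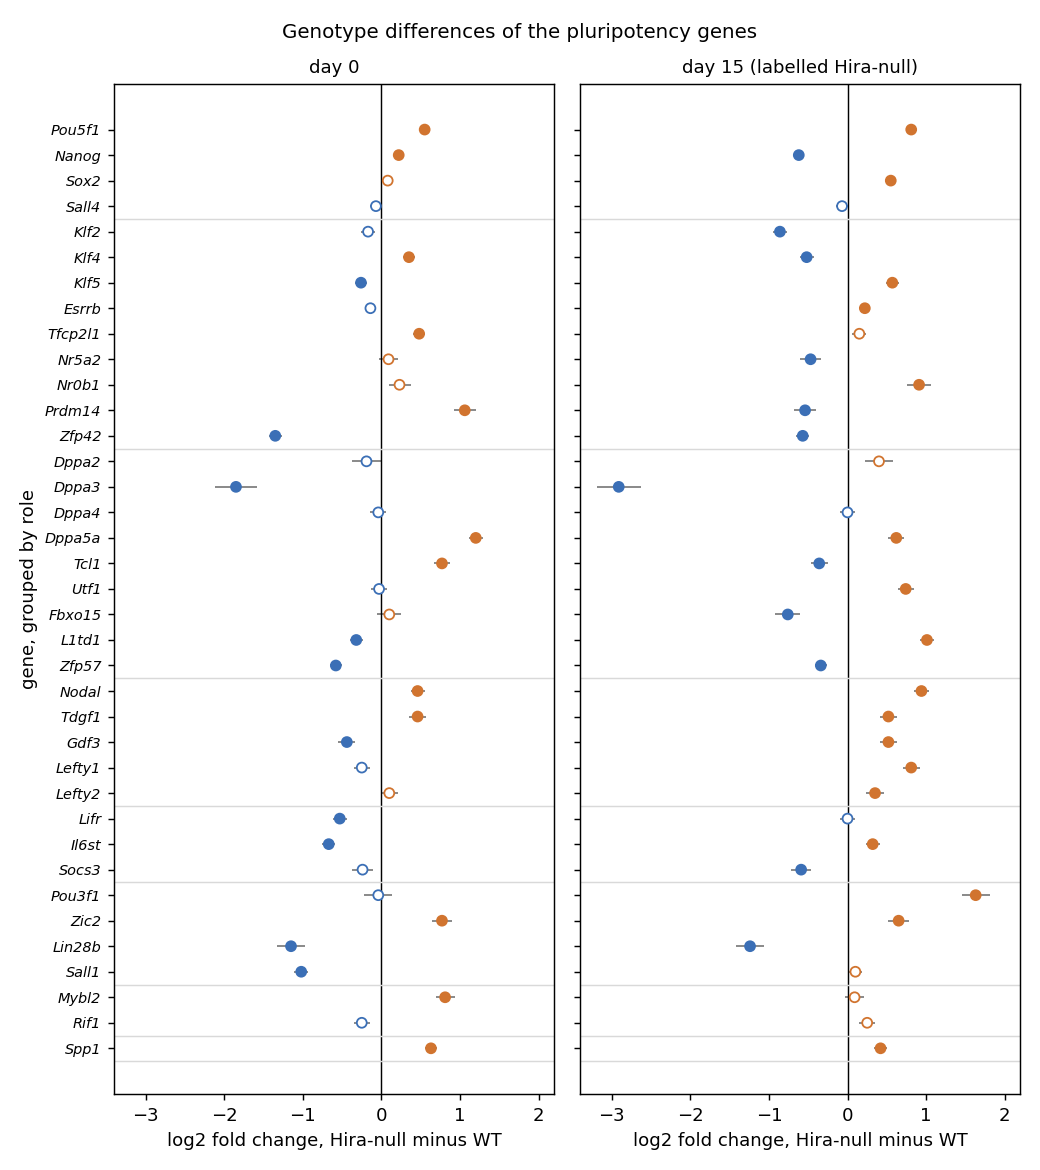
Genotype difference of each gene (log2 fold change, Hira-null minus WT, bars ± SE) at day 0 and at day 15, with genes grouped by role; points are filled where adjusted p is 0.05 or less, orange where higher and blue where lower in Hira-null. Dppa3 lies farthest to the left in both panels (-1.85 and -2.91), and Pou3f1 moves from -0.04 to 1.63.

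Among the core factors, Pou5f1 was raised in Hira-null cells at both days while Nanog changed direction. Pou5f1 (chr17:35642982-35647721, plus strand, NCBIM37 build, which is mm9) was at 641 and 601 FPKM in WT and 904 and 911 in Hira-null cells at day 0, and at 86.2 and 77.8 in WT and 139 and 150 in libraries labelled Hira-null at day 15. The groups did not overlap at either day, with differences of 0.55 ± 0.07 (adjusted p = 0.000517) and 0.81 ± 0.07 (adjusted p = 0.000113). The difference between these effects, 0.26 ± 0.10, did not pass (adjusted p = 0.0785), and passed on the TPM scale (0.32, adjusted p = 0.0238).

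Nanog (chr6:122657507-122664651, plus strand) encodes the homeodomain factor that stabilises the naive state. It was at 252 and 271 FPKM in WT and 303 and 307 in Hira-null cells at day 0, then at 35.1 and 33.5 in WT and 21.4 and 22.5 in libraries labelled Hira-null at day 15. It was thus above WT at the start (0.22 ± 0.07, adjusted p = 0.028) and below it at the end (-0.62 ± 0.07, adjusted p = 0.00028), and the change of effect was -0.84 ± 0.10 (adjusted p = 0.00056). The day 0 call was lost without WT replicate 1 (adjusted p = 0.146), Hira-null replicate 1 (0.126) or Hira-null replicate 2 (0.149), and on the TPM scale (0.0708). Nanog per Pou5f1 was 0.393 and 0.452 in WT at day 0 and 0.407 and 0.430 at day 15, and in Hira-null cells it was 0.336 and 0.337 at day 0 and 0.154 and 0.150 at day 15. The ratio in the WT libraries overlapped between the days, and in Hira-null libraries it did not.

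Sox2 (chr3:34548927-34551383, plus strand), the partner of OCT4 that also marks neural progenitors, was at 203 and 224 FPKM in WT and 225 and 227 in Hira-null cells at day 0, and at 69.1 and 74.1 in WT and 105 and 106 in libraries labelled Hira-null at day 15. It kept 33.5% in WT and 46.6% in Hira-null cells, more than Pou5f1 (13.2% and 15.9%) or Nanog (13.1% and 7.19%). The day 0 difference was 0.08 ± 0.07 (adjusted p = 0.364), the day 15 difference was 0.55 ± 0.07 (adjusted p = 0.000523) and the effect differed between days by 0.47 ± 0.10 (adjusted p = 0.0072). Summed levels of 8 neural progenitor markers, with Fabp7 the most changed (46.2 and 40.1 FPKM in WT, 218 and 180 in libraries labelled Hira-null, adjusted p = 2.6e-05), were 175 and 170 FPKM in WT and 430 and 430 in libraries labelled Hira-null at day 15, and the part of these cells in the Sox2 level was not tested. Sall4, a zinc finger partner of the core factors, was at 137 to 145 FPKM at day 0 and 39.1 to 45.8 at day 15 in every library, and its genotype effect passed at neither day.

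The naive transcription factors fell in both genotypes, all 9 of 9 in each, where 33.4% and 36.4% of all genes were lower, and their genotype effects moved in opposite directions between the days. On the TPM scale the fall of Nr0b1 in Hira-null cells, -0.56, became -0.07 and did not pass (adjusted p = 0.712). Zfp42 (chr8:44380422-44392363, minus strand), the gene of REX1 and a common marker of the naive state, was at 471 and 444 FPKM in WT and 170 and 188 in Hira-null cells at day 0. At day 15 it was at 58.7 and 55.2 in WT and 36.6 and 39.4 in libraries labelled Hira-null. Hira-null libraries were below WT at both days, by -1.35 ± 0.08 (adjusted p = 1.29e-05) and -0.57 ± 0.08 (adjusted p = 0.000753), and the effect shrank by 0.78 ± 0.11 (adjusted p = 0.00119). Zfp42 per Pou5f1 was 0.681 to 0.738 in the 4 WT libraries and 0.188 to 0.264 in the 4 Hira-null libraries. Nanog and Zfp42, whose windows are shown above, had day 0 differences of opposite signs, and any part of the motifs in these was not tested.

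Prdm14 (chr1:13103538-13117244, minus strand), a factor that holds off DNA methylation and primed genes and also acts in germ cells, was at 10.7 and 9.22 FPKM in WT and 22.7 and 20.8 in Hira-null cells at day 0. By day 15 it stood at 2.37 and 2.24 FPKM in WT and 1.43 and 1.13 in libraries labelled Hira-null, from 58, 68, 33 and 28 fragments. It was higher in Hira-null cells at first (1.06 ± 0.14, adjusted p = 0.000514) and lower later (-0.54 ± 0.14, adjusted p = 0.0167), a change of effect of -1.60 ± 0.20 (adjusted p = 0.000734). It kept 23.2% in WT and 5.89% in Hira-null cells, the lowest share of the members there. The day 15 call was lost without WT replicate 1 (adjusted p = 0.126), WT replicate 2 (0.0948) or Hira-null replicate 2 (0.0679), and when limma's voom was run on recovered fragments (0.0835).

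The Kruppel-like factors did not move as a group. Klf2 and Klf4, which can each help maintain naive cells, kept less in Hira-null cells (14.0% and 13.5%) than in WT (23.1% and 25%), with changes of effect of -0.69 ± 0.13 (adjusted p = 0.00398) and -0.87 ± 0.12 (adjusted p = 0.00118). Klf5, the third factor of this kind, kept more, 46.4% against 25.8% (0.83 ± 0.11, adjusted p = 0.000972). At day 15 Klf2 was at 45.3 and 38.3 FPKM in WT and 22.8 and 22.1 in libraries labelled Hira-null, and Klf5 at 30.7 and 28.8 against 46.3 and 43.0, so that neither pair of groups overlapped. At day 0 the Klf4 difference (0.35) and the Klf5 difference (-0.26) were each lost without either Hira-null library (adjusted p from 0.0533 to 0.131), and without WT replicate 1 for Klf4 (0.0532) or WT replicate 2 for Klf5 (0.133).

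The orphan nuclear receptors Esrrb, Nr5a2 and Nr0b1 and the CP2-family factor Tfcp2l1 each passed the genotype test at 1 day. Nr0b1, a partner of OCT4 and of NR5A2, was at 7.03 and 6.70 FPKM in WT and 14.3 and 13.3 in libraries labelled Hira-null at day 15 (0.91 ± 0.15, adjusted p = 0.00164). Its levels at day 0 overlapped between genotypes, 15.1 and 20.7 FPKM against 20.1 and 21.6. Tfcp2l1 was higher in Hira-null cells at day 0 (0.48 ± 0.08, adjusted p = 0.00246) and the 0.15 at day 15 did not pass (adjusted p = 0.225). Esrrb (0.22, adjusted p = 0.0315) and Nr5a2 (-0.47, adjusted p = 0.0209) passed at day 15 alone. Esrrb lost its call in 6 of the 8 fits that left out a library (adjusted p up to 0.134), in all but those without Hira-null replicate 2 of day 0 and without Hira-null replicate 1 of day 15, and Nr5a2 without WT replicate 1 (0.107), WT replicate 2 (0.145) or Hira-null replicate 2 (0.0717) of day 15.

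Stem cell markers held both the most abundant member and the one with the largest genotype difference. Dppa5a (chr9:78214859-78215984, minus strand), an RNA-binding protein of early embryos, was at 1131 and 933 FPKM in WT and 2352 and 2358 in Hira-null cells at day 0, and at 196 and 176 in WT and 298 and 277 in libraries labelled Hira-null at day 15. The Hira-null libraries were the higher ones at both days, by 1.20 ± 0.09 (adjusted p = 5.17e-05) and 0.62 ± 0.10 (adjusted p = 0.00145). The genome holds 6 further stretches at 90% identity or more over 50% or more of its transcript, the closest at 97.9%, so its reads may be shared among copies. The change of effect, -0.57 ± 0.14 (adjusted p = 0.0123), was lost without WT replicate 1 of day 15 (-0.50, adjusted p = 0.0807).

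Dppa3 (chr6:122576428-122580290, plus strand), also called Stella, a maternal factor that shields DNA from demethylation in the zygote and marks naive cells and germ cells, was at 11.6 and 18.7 FPKM in WT and 3.74 and 3.06 in Hira-null cells at day 0. At day 15 it was at 13.0 and 8.24 FPKM in WT and at 0.823 and 0.257 in libraries labelled Hira-null, the last pair resting on 6 and 2 fragments. The groups did not overlap at either day, and the differences were -1.85 ± 0.27 (adjusted p = 0.00103) and -2.91 ± 0.28 (adjusted p = 0.000156). The effect did not differ between the days by the test (-1.06 ± 0.40, adjusted p = 0.0655), and it passed with a pseudocount of 0.1 (-2.09, adjusted p = 0.0364), on the TPM scale (-1.64, 0.0347), with a filter of 5 FPKM (0.0485), without WT replicate 2 of day 0 (-1.38, 0.0282) and without Hira-null replicate 1 of day 15 (-1.33, 0.049). In WT, Dppa3 was the 1 stem cell marker of 9 whose change with time did not pass (-0.47 ± 0.28, adjusted p = 0.162), with 70.0% left, and it passed without WT replicate 1 of day 0 (-0.79, adjusted p = 0.042). The genome holds 3 near copies of Dppa3, the closest at 97.8% identity.

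Dppa3 lies on chromosome 6 between Gdf3 (chr6:122555421-122560105, minus strand) and Nanog, all 3 within 109.0 kb. The genotype differences of these neighbours were unlike each other at day 0, at -0.44 for Gdf3, -1.85 for Dppa3 and 0.22 for Nanog, and at day 15, at 0.52, -2.91 and -0.62. Dppa4 (chr16:48283848-48294405) and Dppa2 (chr16:48310590-48319836), paired chromatin factors that lie within 36.0 kb of chromosome 16, passed the genotype test at neither day and kept 17.8% and 13.7% in WT. Both have near copies elsewhere in the genome, 2 for Dppa4 and 5 for Dppa2.

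L1td1 (chr4:98393425-98405171, plus strand), an RNA-binding protein derived from a LINE-1 element, kept more of its level in Hira-null cells than in WT. It was at 120 and 112 FPKM in WT and 91.2 and 94.4 in Hira-null cells at day 0, then at 25.1 and 28.5 in WT and 57.6 and 52.7 in libraries labelled Hira-null at day 15. The 59.4% left in Hira-null cells against 23.1% in WT gave a change of effect of 1.33 ± 0.12 (adjusted p = 0.000194). The difference was -0.32 ± 0.08 at day 0 (adjusted p = 0.0149) and 1.01 ± 0.09 at day 15 (adjusted p = 8.62e-05). The first of these was lost without WT replicate 1 (adjusted p = 0.0733), Hira-null replicate 1 (0.105) or Hira-null replicate 2 (0.0665). A stretch at 90.6% identity lies elsewhere in the genome.

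Tcl1 (chr12:106454967-106460947, minus strand), a cofactor of the AKT kinase that supports stem cell growth, moved the other way. It was at 26.8 and 25.8 FPKM in WT and 43.7 and 47.5 in Hira-null cells at day 0, and at 5.95 and 5.88 in WT and 4.79 and 4.03 in libraries labelled Hira-null at day 15. It kept 22.5% in WT and 9.67% in Hira-null cells, and the effect changed by -1.13 ± 0.15 (adjusted p = 0.00103). The day 0 difference was 0.77 ± 0.10 (adjusted p = 0.00065) and the day 15 difference was -0.36 ± 0.11 (adjusted p = 0.0301), which was lost without WT replicate 1 (adjusted p = 0.147), WT replicate 2 (0.134) or Hira-null replicate 2 (0.109) of day 15.

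Of the other stem cell markers, Utf1, a chromatin factor of stem cells, was higher in libraries labelled Hira-null at day 15 (0.74 ± 0.10, adjusted p = 0.000716), and Fbxo15, an F-box gene controlled by OCT4 and SOX2, was lower (-0.76 ± 0.16, adjusted p = 0.00589). Neither differed past the test at day 0, at -0.03 and 0.10. Zfp57, which protects the methylation of imprinted regions, was lower in Hira-null libraries at both days (-0.58 and -0.34) and kept 61.9% in WT and 73.2% in Hira-null cells. At day 15, Fbxo15 lost its call without WT replicate 2 (adjusted p = 0.0758) and Zfp57 without WT replicate 1 (0.102).

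**Figure D4:**
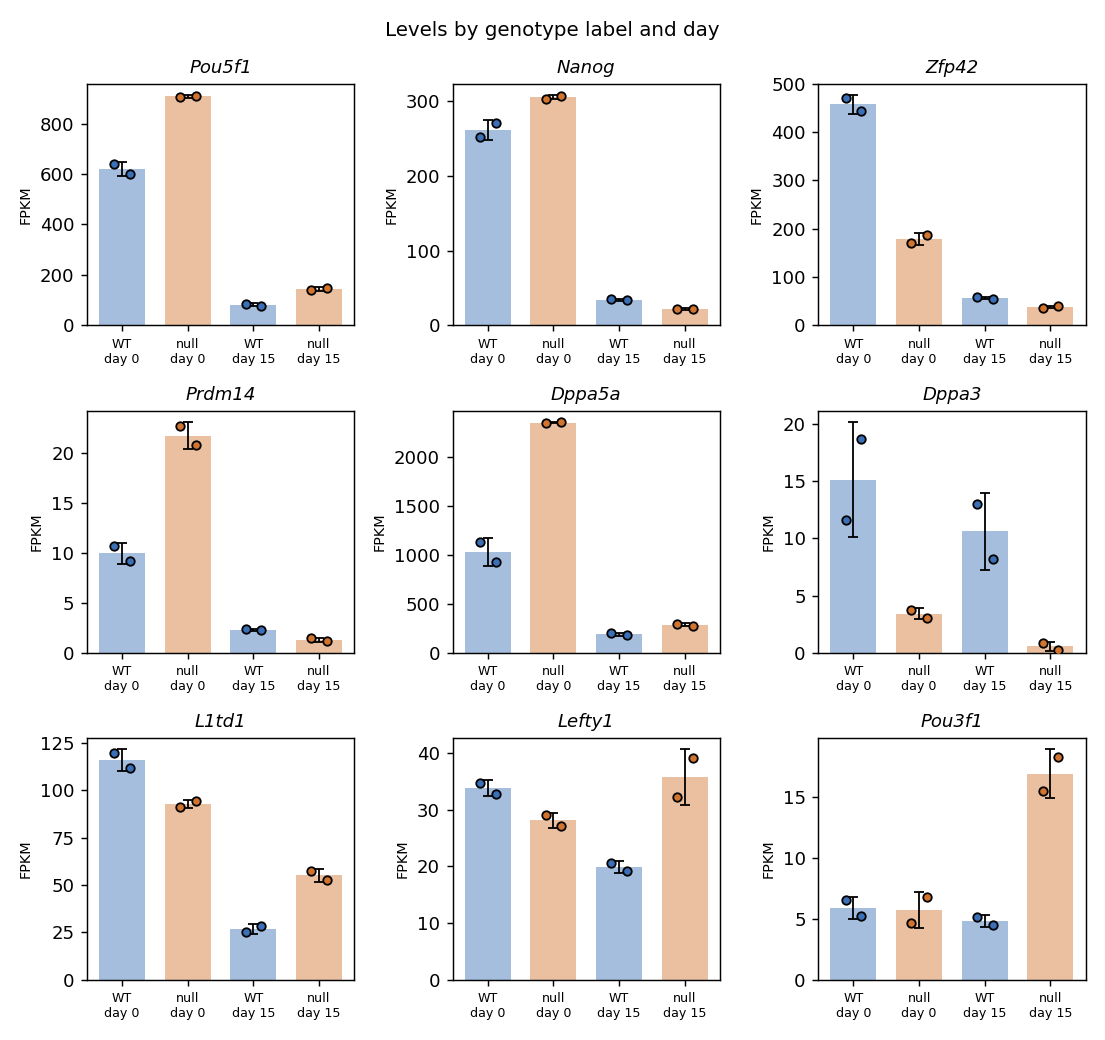
FPKM of 9 genes in the 4 groups, with bars at the group mean, error bars of ± SD (n = 2), points for single libraries, WT in blue and libraries labelled Hira-null (null on the axis) in orange. Nanog, Zfp42, Prdm14 and Dppa3 are lower in the libraries labelled Hira-null at day 15, whereas L1td1, Lefty1 and Pou3f1 are higher there, Pou3f1 at 15.5 and 18.3 FPKM against 5.15 and 4.45 in WT.

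The Nodal pathway was the 1 role group of several genes in which every member was higher in libraries labelled Hira-null at day 15, 5 of 5, where 18.6% of all genes were higher. Of these, the call of Lefty2 held in 3 of the 8 fits that left out a library. Nodal, the ligand, was at 45.7 and 47.2 FPKM in WT and 59.9 and 68.8 in Hira-null cells at day 0, and at 9.43 and 9.33 in WT and 19.1 and 18.7 in libraries labelled Hira-null at day 15. The differences were 0.46 ± 0.09 (adjusted p = 0.00363) and 0.94 ± 0.09 (adjusted p = 0.000147). Tdgf1 (chr9:110842114-110848662, minus strand), the coreceptor Cripto, lost more than any other member in WT, from 515 and 555 FPKM in WT and 743 and 725 in Hira-null cells at day 0 to 27.3 and 34.7 in WT and 47.4 and 41.7 in libraries labelled Hira-null at day 15. The fall was -4.07 ± 0.11 in WT and -4.02 ± 0.11 in Hira-null cells (adjusted p = 3.14e-08 and 1.76e-08), with 5.80% and 6.07% left. The genotype difference of Tdgf1 was 0.46 at day 0, lost without Hira-null replicate 1 (adjusted p = 0.0705) or 2 (0.0542), and 0.52 at day 15, lost without WT replicate 1 (0.0637).

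Gdf3, a ligand of the same family that can restrain BMP signalling, was at 46.9 and 42.6 FPKM in WT and 32.2 and 33.2 in Hira-null cells at day 0, and at 4.63 and 4.73 in WT and 6.55 and 7.77 in libraries labelled Hira-null at day 15. The effect moved from -0.44 ± 0.11 (adjusted p = 0.01) to 0.52 ± 0.11 (adjusted p = 0.00614), a change of 0.96 ± 0.15 (adjusted p = 0.00208). The day 0 call was lost without WT replicate 1 (adjusted p = 0.056), Hira-null replicate 1 (0.0735) or Hira-null replicate 2 (0.0534), and the day 15 call without WT replicate 1 (0.0593) or WT replicate 2 (0.0507).

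The inhibitors Lefty1 and Lefty2, which are induced by Nodal and block it, kept more of their level than the other Nodal pathway members. In WT 58.9% of Lefty1 and 108% of Lefty2 were left at day 15. Lefty1 (chr1:182865153-182868531, plus strand) was at 34.8 and 32.8 FPKM in WT and 29.1 and 27.2 in Hira-null cells at day 0, then at 20.6 and 19.2 in WT and 32.3 and 39.2 in libraries labelled Hira-null at day 15. It fell in WT (-0.74 ± 0.10, adjusted p = 0.000223) and rose in Hira-null cells (0.33 ± 0.10, adjusted p = 0.0184), and the effects differed by 1.06 ± 0.15 (adjusted p = 0.00119). The rise was lost without Hira-null replicate 2 of day 15 (0.19, adjusted p = 0.116) or Hira-null replicate 2 of day 0 (0.28, adjusted p = 0.107). Lefty2 (chr1:182823239-182829234, plus strand), within 45.3 kb of Lefty1, was at 21.1 and 18.5 FPKM in WT and 21.2 and 21.2 in Hira-null cells at day 0, and at 23.1 and 19.5 in WT and 28.5 and 26.0 in libraries labelled Hira-null at day 15. Its day 15 difference, 0.35 ± 0.11 (adjusted p = 0.0384), was lost without WT replicate 1 (adjusted p = 0.0613), WT replicate 2 (0.281) or Hira-null replicate 1 (0.14) of day 15 and without either Hira-null library of day 0 (0.0526 each). Its rise in Hira-null cells, 0.34 ± 0.11 (adjusted p = 0.0185), was lost without either Hira-null library of day 0 (0.0707 and 0.0709) or Hira-null replicate 1 of day 15 (0.0953). Their coding sequences are 91.9% identical, and reads could be split between them.

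Of the LIF pathway members, both receptor chains were lower in Hira-null cells at day 0 and did not stay so. Il6st (chr13:113265216-113297068, plus strand) encodes gp130, the shared signalling chain. It was at 21.1 and 22.3 FPKM in WT and 12.9 and 13.5 in Hira-null cells at day 0, and at 40.9 and 40.5 in WT and 54.1 and 48.3 in libraries labelled Hira-null at day 15. It rose by 0.88 ± 0.09 in WT (adjusted p = 2.2e-05) and by 1.87 ± 0.09 in Hira-null cells (adjusted p = 2.01e-07), and the genotype effect went from -0.67 ± 0.08 (adjusted p = 0.000446) to 0.32 ± 0.09 (adjusted p = 0.0192), a change of 0.99 ± 0.12 (adjusted p = 0.000712). The day 15 call was lost without WT replicate 1 (adjusted p = 0.104), WT replicate 2 (0.117) or Hira-null replicate 1 (0.0774).

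Lifr, the LIF-specific chain, was at 21.7 and 22.5 FPKM in WT and 14.9 and 15.1 in Hira-null cells at day 0 (-0.53 ± 0.09, adjusted p = 0.00193), and between 14.8 and 16.4 FPKM in all 4 libraries at day 15. Socs3, the STAT3 target that feeds back on gp130, fell in both genotypes to 16.3% in WT and 12.6% in Hira-null cells. At day 15 it was lower in libraries labelled Hira-null (-0.59 ± 0.13, adjusted p = 0.00798), a call lost without WT replicate 1 (adjusted p = 0.0903). The change of effect of Lifr, 0.53 (adjusted p = 0.0142), was lost without WT replicate 1 of day 15 (0.0548), and its fall in WT, -0.48, became -0.03 on the TPM scale (adjusted p = 0.803).

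Of the 4 genes used as primed and neural markers, Zic2 rose and Sall1 fell in WT, and Pou3f1 and Lin28b did not pass there. Pou3f1 (chr4:124334896-124337899, plus strand), the POU factor OCT6 of primed epiblast and early neural cells, was at 6.50 and 5.23 FPKM in WT and 4.69 and 6.77 in Hira-null cells at day 0, and at 5.15 and 4.45 in WT and 15.5 and 18.3 in libraries labelled Hira-null at day 15. The libraries labelled Hira-null at day 15 stood alone above all others. The rise was 1.43 ± 0.18 in Hira-null cells (adjusted p = 9.34e-05) where WT gave -0.24 ± 0.18 (adjusted p = 0.264), the day 15 difference was 1.63 ± 0.18 (adjusted p = 0.000305) and the change of effect was 1.67 ± 0.26 (adjusted p = 0.00184). The summed neural progenitor markers were also higher in those libraries, at 430 and 430 against 175 and 170 FPKM. By the test 4 of the 8 were higher and none lower, where 18.6% of all genes were higher. The part of neural progenitors in the Pou3f1 level was not tested.

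Zic2 (chr14:122874604-122879074, plus strand), a zinc finger factor of primed and neural cells, was at 8.24 and 9.29 FPKM in WT and 14.1 and 17.4 in Hira-null cells at day 0, and at 15.2 and 17.4 in WT and 24.5 and 27.7 in libraries labelled Hira-null at day 15. It rose in both genotypes and was higher in Hira-null libraries at both days, by 0.77 ± 0.13 (adjusted p = 0.00178) and 0.65 ± 0.13 (adjusted p = 0.00549), the latter lost without WT replicate 1 of day 15 (adjusted p = 0.0837). Lin28b (chr10:45096426-45206201, minus strand), a repressor of let-7 microRNAs, was the reverse. It was at 6.21 and 7.05 FPKM in WT and 2.78 and 2.13 in Hira-null cells at day 0, and at 7.25 and 9.52 in WT and 3.32 and 2.61 in libraries labelled Hira-null at day 15. It was thus lower in Hira-null libraries at both days (-1.15 ± 0.18 and -1.24 ± 0.18, adjusted p = 0.00118 and 0.00108), and its change with time passed in neither genotype.

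Sall1 (chr8:91551147-91568061, minus strand), a zinc finger factor found with NANOG in stem cells and later in kidney and neural tissue, started apart and ended level. It was at 54.5 and 57.1 FPKM in WT and 27.2 and 26.6 in Hira-null cells at day 0 (-1.02 ± 0.09, adjusted p = 8.48e-05), and at 32.4 and 28.5 in WT and 30.9 and 34.8 in libraries labelled Hira-null at day 15 (0.10 ± 0.09, adjusted p = 0.413). It fell in WT (-0.85 ± 0.09, adjusted p = 4.15e-05) and rose in Hira-null cells (0.27 ± 0.09, adjusted p = 0.0234), and the effects differed by 1.13 ± 0.13 (adjusted p = 0.000584). The rise was lost without Hira-null replicate 1 (adjusted p = 0.0718) or 2 (0.104) of day 0 or Hira-null replicate 2 of day 15 (0.126).

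Mybl2, a cell cycle transcription factor of dividing stem cells, was at 109 and 99.2 FPKM in WT and 187 and 180 in Hira-null cells at day 0 (0.81 ± 0.12, adjusted p = 0.000821), and between 31.2 and 41.4 FPKM in all 4 libraries at day 15. Rif1, which acts in replication timing and telomere maintenance, was between 31.4 and 45.3 FPKM in all 8 libraries, and its genotype difference passed at neither day. With voom on recovered fragments it passed at both, at -0.21 (adjusted p = 0.033) and 0.23 (adjusted p = 0.0202). Rif1 rose in Hira-null cells (0.42 ± 0.10, adjusted p = 0.00458), and its change in WT did not pass (-0.08 ± 0.10, adjusted p = 0.521). Mybl2 has a near copy at 99.8% identity. Of 12 proliferation genes, 4 were higher and 3 lower in Hira-null cells at day 0, where 20.8% and 19.4% of all genes were. At day 15 none was higher and 8 were lower by label, where 18.8% of all genes were lower.

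Spp1 (chr5:104864137-104870069, plus strand), the secreted protein osteopontin, passed the test with time in neither genotype (adjusted p = 0.971 in WT and 0.0502 in Hira-null cells). In Hira-null cells the fall, -0.20, passed with a pseudocount of 0.1 (adjusted p = 0.0497) or a filter of 5 FPKM (adjusted p = 0.0446). On the TPM scale Spp1 rose in WT (0.47, adjusted p = 0.000584) and in Hira-null cells (0.32, adjusted p = 0.00467). It was at 93.0 and 80.5 FPKM in WT and 132 and 137 in Hira-null cells at day 0, and at 84.0 and 89.6 in WT and 114 and 120 in libraries labelled Hira-null at day 15. The WT libraries of both days overlapped, and Hira-null libraries were higher at both days, by 0.63 ± 0.08 (adjusted p = 0.000512) and 0.42 ± 0.08 (adjusted p = 0.00471). The day 15 call was lost without WT replicate 1 of that day (adjusted p = 0.0698). The windows of Spp1 and Zfp42 shown above hold the same octamer, and Zfp42 kept 12.5% in WT and was lower in Hira-null cells. Any part of the octamer in the level of either gene was not tested.

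Other genes of these programs were read from lists that share no gene with the members. Of 28 other naive and stem cell genes, 27 fell and 1 rose in WT, and 26 fell and 1 rose in Hira-null cells, with medians of -1.92 and -1.99. The share of all genes that fell was 33.4% in WT and 36.4% in Hira-null cells. By genotype, 9 of the 28 were higher and 10 lower at day 0, and 9 were higher and 9 lower at day 15. The shares of all genes that passed in either direction were 40.2% and 37.4%. The largest changes at day 0 were Dazl (2.33 ± 0.20), Gbx2 (-1.83 ± 0.16) and Ooep (1.58 ± 0.14), with adjusted p of 7.49e-05, 8.41e-05 and 9.06e-05. Dazl, an RNA-binding protein of germ cells, was at 11.7 and 19.0 FPKM in WT and 79.7 and 78.5 in Hira-null cells at day 0, and at 5.44 and 7.14 in WT and 1.25 and 1.42 in libraries labelled Hira-null at day 15. It was therefore higher in Hira-null cells at day 0 and lower at day 15, as Prdm14 was, and the summed level of 8 germ line markers, Dazl included, was 78.8 and 91.0 FPKM in WT and 231 and 229 in Hira-null cells at day 0, and 24.5 and 27.0 against 14.0 and 11.8 at day 15. Sycp3 (2.19 ± 0.29, adjusted p = 0.000606) and Mael (1.84 ± 0.14, adjusted p = 3.95e-05), genes of meiosis and of transposon silencing in germ cells, had the next largest differences at day 0. Of these 8 markers, 4 were higher and none lower at day 0, where 20.8% of all genes were higher. At day 15, 4 were lower and none higher, where 18.8% of all genes were lower. Dazl alone passed at both days. Sycp3 (0.07 ± 0.30), Mael (0.17 ± 0.14) and Ddx4 (-0.02 ± 0.18) did not pass at day 15.

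At day 15 the most changed of the other naive and stem cell genes were Jam2 (1.73 ± 0.11, adjusted p = 2.77e-05) and Dnmt3l (1.65 ± 0.07, adjusted p = 7.58e-06). Dnmt3l, the cofactor of the de novo DNA methyltransferases, was at 241 and 224 FPKM in WT and 235 and 238 in Hira-null cells at day 0, and at 7.87 and 7.32 in WT and 26.5 and 25.5 in libraries labelled Hira-null at day 15. The genotypes overlapped at day 0 and not at day 15, the change of effect was 1.63 ± 0.10 (adjusted p = 7.04e-05) and the fall in WT was -4.76 ± 0.07 (adjusted p = 2.51e-09).

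Of 23 other formative and primed genes, 12 rose and 9 fell in WT and 11 rose and 9 fell in Hira-null cells. With time, 69.5% and 73.9% of all genes changed. At day 15 the libraries labelled Hira-null had 9 of the 23 higher and 2 lower, with a median of 0.33 against 0.01 over all genes. At day 0, 5 were higher and 9 lower. Over all genes, 18.6% were higher and 18.8% lower at day 15, and 20.8% and 19.4% at day 0. T (brachyury), a primitive streak factor, showed the largest day 15 difference (1.79 ± 0.19, adjusted p = 0.000249), at 14.6 and 13.3 FPKM in WT and 51.0 and 50.4 in libraries labelled Hira-null. Next were Foxd3 (1.09 ± 0.14, adjusted p = 0.00048) and Otx2 (0.87 ± 0.12, adjusted p = 0.000803), both factors of the exit from the naive state.

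Among 19 other LIF and cytokine pathway genes, 5 were higher and 3 lower at day 0, near the 40.2% of all genes that passed. At day 15 the balance by label was 2 higher and 8 lower, where 18.6% of all genes were higher and 18.8% lower. The STAT3 target kinase gene Pim1 was at 48.7 and 54.1 FPKM in WT and 144 and 142 in Hira-null cells at day 0 (1.46 ± 0.12, adjusted p = 6.11e-05). Cish (0.97 ± 0.18, adjusted p = 0.00301), a feedback inhibitor of cytokine receptors, and Pim3 (0.94 ± 0.10, adjusted p = 0.000161) were also higher. Among the members, the receptor chains Lifr and Il6st were lower at day 0. The STAT3 target Socs3 lay below WT then without passing (-0.24 ± 0.13, adjusted p = 0.16), and passed with voom (adjusted p = 0.0214). Stat3 itself (0.03 ± 0.09) and Junb (0.08 ± 0.14) did not pass at day 0. The largest difference at day 15 was in Bcl3, a cofactor of NF-kappaB and target of STAT3, which went from 0.82 ± 0.18 at day 0 (adjusted p = 0.00698) to -1.46 ± 0.19 at day 15 (adjusted p = 0.000525). With time, 10 of the 19 rose and 4 fell in WT, and 6 rose and 8 fell in Hira-null cells. The shares of all genes that changed were 69.5% and 73.9%.

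Of 18 other Nodal pathway genes, 17 could be tested, since Gdf1 was at 0 in all libraries. At day 0, 7 were higher and 1 was lower in Hira-null cells, where 20.8% and 19.4% of all genes were. At day 15, 4 were higher and 2 lower, near the 37.4% of all genes that passed. The largest change at day 0 on this list was that of Tmem8b (1.27 ± 0.14, adjusted p = 0.00025). It is counted among the 7, but its place in the pathway was not checked. Next was the receptor Acvr2b (0.99 ± 0.14, adjusted p = 0.000915). Pcsk6, a protease that activates Nodal, was higher at day 15 (1.15 ± 0.12) and Cfc1, the other coreceptor of the Cripto family, was lower (-2.12 ± 0.16, adjusted p = 5.57e-05), at 3.48 and 3.62 FPKM in WT and 0 and 0.101 in libraries labelled Hira-null. In WT 11 rose and 3 fell, and in Hira-null cells 8 rose and 4 fell, where 69.5% and 73.9% of all genes changed.

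Most extraembryonic endoderm markers differed by genotype at day 0 already, when the cultures were undifferentiated. Over all genes, 40.2% passed at day 0 and 37.4% at day 15. Calls of the trophoblast, macrophage and cleavage embryo markers at day 0 were at or below the share of that day. Of 9 extraembryonic endoderm markers, 7 were lower and 1, Afp, was higher in Hira-null cells at day 0, and 7 were lower and 1, Foxa2, was higher at day 15. Their summed level was 216 and 215 FPKM in WT and 23.0 and 20.5 in Hira-null cells at day 0, led by Lama1 (160 and 154 against 13.7 and 14.1), and 239 and 227 against 72.2 and 74.4 at day 15. Of 5 trophoblast markers tested of 7, 2 were lower at day 0 and 4 at day 15, with none higher, and their sum was 81.5 and 75.5 against 48.9 and 51.2 FPKM at day 0. Of 5 macrophage markers, 1 was higher and 1 lower at day 0 and 5 were lower at day 15. Of 4 tested markers of the earliest cleavage embryo, such as Zscan4c, 1 was higher at day 0 and none passed at day 15. The part of such cells in the genotype differences of the pluripotency genes was not tested.

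At day 15, 8 cardiomyocyte markers summed to 183 and 177 FPKM in WT and 116 and 125 in libraries labelled Hira-null, from 23.3 to 32.3 in the day 0 libraries, and 7 of 8 rose in WT and 5 of 8 in Hira-null cells. The share of all genes that rose was 36.1% in WT and 37.5% in Hira-null cells. By genotype at day 15, 3 of the 8 markers were lower, none was higher and 5 did not pass. Over all genes 37.4% passed in either direction. Most of the gap in the sum lay in Myl7, an atrial myosin light chain, at 68.9 and 64.9 FPKM in WT against 12.4 and 11.9, whereas Tnnt2, cardiac troponin T, was at 38.9 and 41.0 against 57.8 and 59.7 (adjusted p = 0.0838). Members still summed to 1169 and 1124 FPKM in WT and 1442 and 1448 in libraries labelled Hira-null at day 15, from 5371 and 5139 in WT and 6846 and 6868 in Hira-null cells at day 0. The sum at each day was higher in Hira-null libraries with no overlap, and Dppa5a alone made 2352 and 2358 FPKM of it in Hira-null cells at day 0.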

How the data were processed

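Messenger RNA of WT and Hira-null mESCs at day 0 and day 15 was sequenced by the authors as stranded, paired-end libraries, 2 per group, aligned to mm9 with Bowtie 0.12.2 per the labels. The authors deposited FPKM values for 24421 genes in 8 libraries. The strand setting of their counter is not given in the sources consulted. The authors also deposited tables of their own DESeq2 (1.6.3) comparisons, with mean normalized counts, fold changes, standard errors, test statistics and p-values, which were not used here.

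FPKM values were whole multiples of one fragment (100% of positive values within 0.1), which gave the depth. This covers counting error only, and replicates differed by more (chi-square per degree of freedom 2.91 to 6.14). The 14337 genes that reached 1 FPKM in 2 or more libraries entered limma 3.58.1 (R 4.3.3) on log2(FPKM + 1), with 4 group means, 1 weight per day (1.03 and 0.968), a trended prior (4 residual and 4.70 prior degrees of freedom) and Benjamini-Hochberg adjustment. The 5 contrasts were genotype at each day, time in each genotype, and the difference of genotype effects. The script was tested on simulated data for the genotype comparison at day 15 alone, not for the other contrasts. Gene positions are from the NCBIM37 annotation, and near copies were sought with minimap2 2.31-r1302. Promoter sequences are RefSeq's, GRCm38.p6. A total of 27 symbols turned into dates were not used as names.

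Members and lists were chosen with earlier results of these data known. Values per library were given for Pou5f1, Nanog and Sox2, for members past a genotype or interaction test at 2-fold or more, and for the 5 members with the most and the 5 with the least left in WT. Library values of Nodal, Nr0b1, Klf2, Klf5, Lifr and Mybl2 stand outside this rule and were added after their values were seen. From each list up to 3 most changed genes were named, and other members were named by role. Hira, and list genes given for their direction or as a check, stand outside this rule. Same-numbered replicates of different groups did not deviate together (r from -0.097 to 0.046) and were not paired. Alternatives were another pseudocount, filter, scaling, sample set, weighting, a replicate block, voom on recovered fragments, and leaving out each library.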

Additional observations from a re-analysis of the deposited data

Results flagged for a closer look

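For 24 of the 37 genes the genotype effect (Hira-null minus WT, log2) differed between day 15 and day 0 by the interaction test in limma, at an adjusted p of 0.05 or less, where 35.2% of all genes did so. The libraries labelled Hira-null at day 15 are not lower in Hira, so these differences are between labels.

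The effect became more positive for 15 genes. The change was 1.67 for Pou3f1, 1.33 for L1td1, 1.13 for Sall1, 1.06 for Lefty1, 0.99 for Il6st, 0.96 for Gdf3, 0.83 for Klf5 and 0.78 for Zfp42. It was 0.77 for Utf1, 0.68 for Nr0b1, 0.53 for Lifr, 0.50 for Rif1, 0.48 for Nodal, 0.47 for Sox2 and 0.37 for Esrrb.

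The effect became more negative for 9 genes. The change was -1.60 for Prdm14, -1.13 for Tcl1, -0.87 for Klf4, -0.85 for Fbxo15 and -0.84 for Nanog. It was -0.72 for Mybl2, -0.69 for Klf2, -0.57 for Dppa5a and -0.55 for Nr5a2.

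Of the 24 calls, 15 were kept in every fit without 1 library. Nr5a2 was kept in 1 of 8 such fits, Nr0b1 and Rif1 in 2, Esrrb and Nodal in 4, Fbxo15 in 6, and Dppa5a, Lifr and Mybl2 in 7, with highest adjusted p-values of 0.131, 0.122, 0.121, 0.0775, 0.0758, 0.078, 0.0807, 0.0548 and 0.0531 in that order.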

How the results depend on the processing

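Rescaling to TPM had the largest effect on changes with time, where it moved the median of all genes to 0.47 in WT and 0.50 in Hira-null cells (log2) and raised the share of calls that were higher from 52.0% to 72.4% and from 50.8% to 69.9%, as follows from fixing the total of each library. Genes lower with time became 2824 in WT and 3269 in Hira-null cells, members higher in WT became 6, and the median left became 34.7% and 31.8%. Rif1 in WT (0.39), Zfp57 in Hira-null cells (0.08) and Spp1 in Hira-null cells (0.32) then changed sign, with adjusted p = 0.0131, 0.393 and 0.00467. Median-ratio scaling gave a median left of 22.4% in Hira-null cells.

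Over the fits that left out 1 library, genes higher and lower by genotype ranged from 1869 to 2865 and from 1837 to 2748 at day 0, and from 1261 to 2670 and from 1280 to 2633 at day 15. Genes with a more positive or more negative effect at day 15 ranged from 1422 to 2279 and from 1471 to 2403. Members higher and lower ranged from 10 to 17 and from 7 to 12 at day 15, members higher with time in Hira-null cells from 4 to 7, and the median left in Hira-null cells from 22.4% to 24.2%. Where 1 library stands for a group, it is taken to vary like the others. The cause of these changes was not tested.

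With the replicate number as a block, members counted at day 15 were 16 higher and 11 lower, and 15 and 8 for the change of effect. Esrrb (adjusted p = 0.0698) and Tcl1 (0.059) lost their day 15 call and Nr5a2 its change of effect (0.0592), and the block changed no other call of a member. The labels share a number alone.

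At 2 libraries a group, small differences in low genes may have been missed. The size of the Dppa3 difference at day 15, which passed, rests on 6 and 2 fragments in the libraries labelled Hira-null.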
